A study of Mus musculus with 6 samples.

Results

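Cells sorted for ALCAM from embryonic mouse liver were set against unsorted liver cells, gene by gene, on 1 array each. These 2 arrays, of 6 in the series, were chosen by their source labels. Of 20678 genes with a probe set of their own, 11021 had an intensity above 109.0, the floor used here, in the higher of the 2 arrays, and these are the genes described. The other 9657 were at or below the floor in both arrays. Both groups were wild type C57Bl6 embryos at E12.5, midgestation by embryonic age, and, by their labels, differed only in the sort. The remaining arrays held fractions of ALCAM+ cells divided by podoplanin (PDPN) or integrin alpha 8 (ITGA8). The labels do not say how many embryos went into a sample, nor how the gate for ALCAM was set. With 1 array per group there is no spread between samples, so no difference below has a replicate check, an error or a p-value.

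At this age the liver is a blood-forming organ. Its cells are mostly maturing red cells, with hepatoblasts, macrophages, megakaryocytes, neutrophils and endothelium among them. A sheet of mesothelium covers the organ, and beneath it lie mesenchymal cells that give rise to hepatic stellate cells. ALCAM, an adhesion molecule of the immunoglobulin family, is carried by this mesothelium and by the mesenchyme under it. Red cell precursors build haemoglobin and a spectrin membrane skeleton as they mature, while mesenchyme and mesothelium make collagens, microfibrils and basement membrane.

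The deposited intensities of the ALCAM+ array were higher for most genes. The median difference of the 11021 genes was 0.88 on a log2 scale, a 1.85-fold shift, and median probe set intensity was 66 in ALCAM+ cells and 42 in liver. The 18 hybridisation control probe sets, which detect bacterial and phage transcripts spiked into each sample, had a median ratio of 1.01. They were not alike: the 4 for bioC were 2.31 to 2.62 times as bright in the ALCAM+ array, more than the shift itself, while those for bioB, bioD and cre had median ratios of 1.12, 0.970 and 0.884. The mouse control transcripts also differed along their length. The ratio of 5′ to 3′ intensity was 0.435 in ALCAM+ cells and 0.672 in liver for beta-actin, 0.466 and 0.514 for Gapdh, and 0.0366 and 0.138 for the transferrin receptor. The control probe sets for 18S ribosomal RNA were at 0.253 to 0.561 times their liver value in ALCAM+ cells. The part of RNA quality in the differences below was not tested. All differences below are log2(intensity + 16) in ALCAM+ minus liver, less the shift of 0.88, and "higher" or "lower" means past 2-fold on that scale. On this footing 1715 genes (15.6%) were higher in ALCAM+ cells and 1270 (11.5%) were lower. As deposited, with nothing subtracted, the same threshold gave 4914 higher (44.6%) and 311 lower (2.82%). A gene with a relative difference between -0.88 and 0 was therefore brighter, not dimmer, in the ALCAM+ array. Where 1 array lies below the floor, the size of a difference also depends on the constant of 16. Among the 8202 genes above the floor in both arrays, 8.79% were higher and 12.1% lower with the same shift of 0.88 taken off. Centred on their own median of 0.72 instead, 11.6% were higher and 8.58% lower, so which direction held more genes depended on the centring. A gene that is above the floor only in the ALCAM+ array was brighter there by the way it passed, and could hardly be lower, and 2538 genes were of this kind against 281 above it only in liver. For lists with many such members the count is a description, and the values over members above the floor in both arrays are given beside it.

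**Figure D1:**
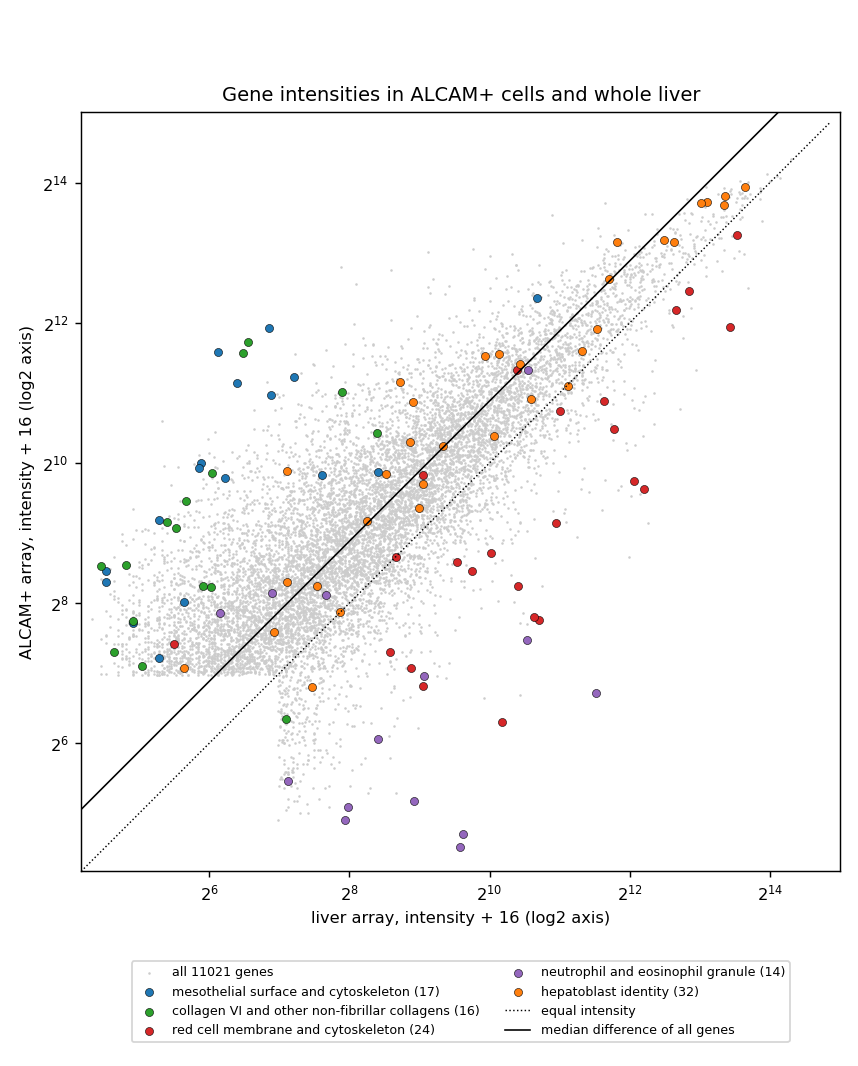
Intensity + 16 of each of the 11021 genes in liver (horizontal, log2 axis) and ALCAM+ cells (vertical, log2 axis), 1 point per gene, with 5 gene lists coloured and the number of members above the floor in brackets. The solid line marks the median difference of 0.88 and the dotted line equal intensity; mesothelial genes and all collagen genes but Col19a1 lie above the solid line, and red cell membrane genes mostly below the dotted one.

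The difference depended on how bright a gene was. The genes were split by mean intensity into 10 bins of near equal number. In the dimmest bin the median difference was 0.64 and 34.0% of genes were higher, whereas in the brightest bin the median was -0.31 and 3.09% were higher. The medians of the other bins lay between -0.11 and 0.09. The share of lower genes stayed between 9.89% and 13.2% in every bin. A count of dim genes that were higher in ALCAM+ cells thus has a larger background than a count of bright ones. Among the genes closest to the 2-fold line on the higher side were Smad7, an inhibitor of TGF-beta signalling, just inside it at 771 in ALCAM+ cells and 197 in liver, and the dystroglycan gene Dag1 just outside it at 1659 and 438. On the lower side, the membrane-sorting gene Chmp2a was just inside at 1231 and 1337, and the peptidase gene Prcp just outside at 1001 and 1085.

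**Figure D2:**
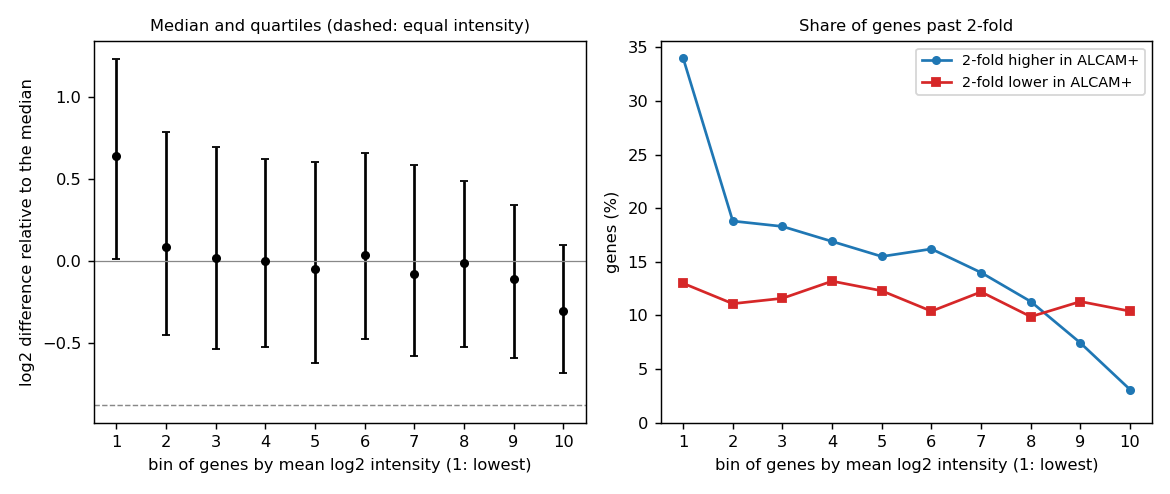
Left, the median difference in ALCAM+ minus liver (log2, relative to the shift; bars are quartiles over genes) in 10 bins of the 11021 genes ordered by mean intensity; right, the percentage of genes past 2-fold in each bin. The median is 0.64 in the dimmest bin and -0.31 in the brightest, and the share of higher genes goes from 34.0% to 3.09%, while the share of lower genes is near level.

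Separate probe sets of a gene gave an internal check on its value. For 87.0% of the higher genes with another probe set above the floor (569 of 654) the median of these others lay on the same side, and for 42.5% it was past 2-fold too. For lower genes these shares were 88.5% (338 of 382) and 57.6%. Past 4-fold they were 96.7% and 78.4% for higher genes, and 97.9% and 93.6% for lower ones. The median standard deviation between probe sets of a gene was 0.44 on the log2 scale over 4183 genes, so single genes near 2-fold are less certain than those far from it. Other probe sets are given below for some genes and not for all.

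The 4 markers of the sorted cells were all brighter in the ALCAM+ array. Alcam itself was at 13425 in ALCAM+ cells and 3207 in liver, a difference of 1.18, and its 3 other probe sets had a median of 1.88. Upk3b, a uroplakin of the mesothelial surface, was at 3053 and 54 in the same order (4.57). Col6a1, a chain of collagen VI, was at 3032 and 73 (4.21). Wt1, the zinc finger transcription factor of mesothelium, was at 1994 and 102 (3.21). In liver, Alcam was among the brighter genes (percentile 98.0 of all genes in that array), whereas the other 3 were below the floor. In bulk RNA, fewer cells of a type and less RNA per cell cannot be told apart, here and in every group of genes below.

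Mesothelial genes were the list furthest above the shift by the median of all members above the floor, a rank that rests on members dim in liver. Of 24 members measured, 17 were above the floor, 15 of these were higher and none lower, with a median of 3.01 (0 for all genes by construction, and 3.90 as deposited). Of the 17, 13 were above the floor only in ALCAM+ cells. Of the other 4, 2 were higher and the median was 1.06. Over members above the floor in both arrays, several lists had a larger median, such as fibrillar collagens (2.41) and coelomic transcription factors (1.56). Bnc1, a zinc finger protein of mesothelium and other epithelia, was at 2251 in ALCAM+ cells and 68 in liver. Keratins 7 and 19 of the mesothelial cytoskeleton were also high: Krt7 was at 1007 against 43 (3.23) and Krt19 at 871 against 59 (2.68). Muc16, a surface mucin, was at 336 against 7 (3.05). The membrane glycoprotein gene Gpm6a was above the floor in both arrays, at 2388 and 132 (3.14). Within 2-fold lay Podxl, a sialomucin that blood vessels and blood cells also carry (5238 against 1628, 0.79), and the membrane linker gene Ezr (0.59). Msln, which encodes mesothelin, was below the floor in both arrays, at 62 and 8.

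Transcription factors of the coelomic lining and its mesenchyme differed in the same direction. Of 35 measured, 26 were above the floor, 19 were higher and none lower, with a median of 1.37. Of these 26, 19 were above the floor only in ALCAM+ cells, and of the other 7, 4 were higher (median 1.56). The T-box gene Tbx18 was at 259 in ALCAM+ cells and 9 in liver (2.58), though its other probe set was at 0.69. The LIM homeobox gene Isl1 was at 1410 and 97 (2.77). All 3 GATA factors of mesoderm were higher, in contrast with the blood factor Gata1 described below. Gata4, which septum transversum mesenchyme needs, was at 1582 against 139 (2.48), Gata6 at 628 against 62 (2.16) and Gata5 at 249 against 22 (1.92). The orphan receptor gene Nr2f1 was at 497 against 26 (2.73). At the other end were the repressors of E-cadherin Zeb1 (0.33) and Zeb2 (0.44), at 2462 against 1055 and 1424 against 559, which were strong in both arrays.

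**Figure D3:**
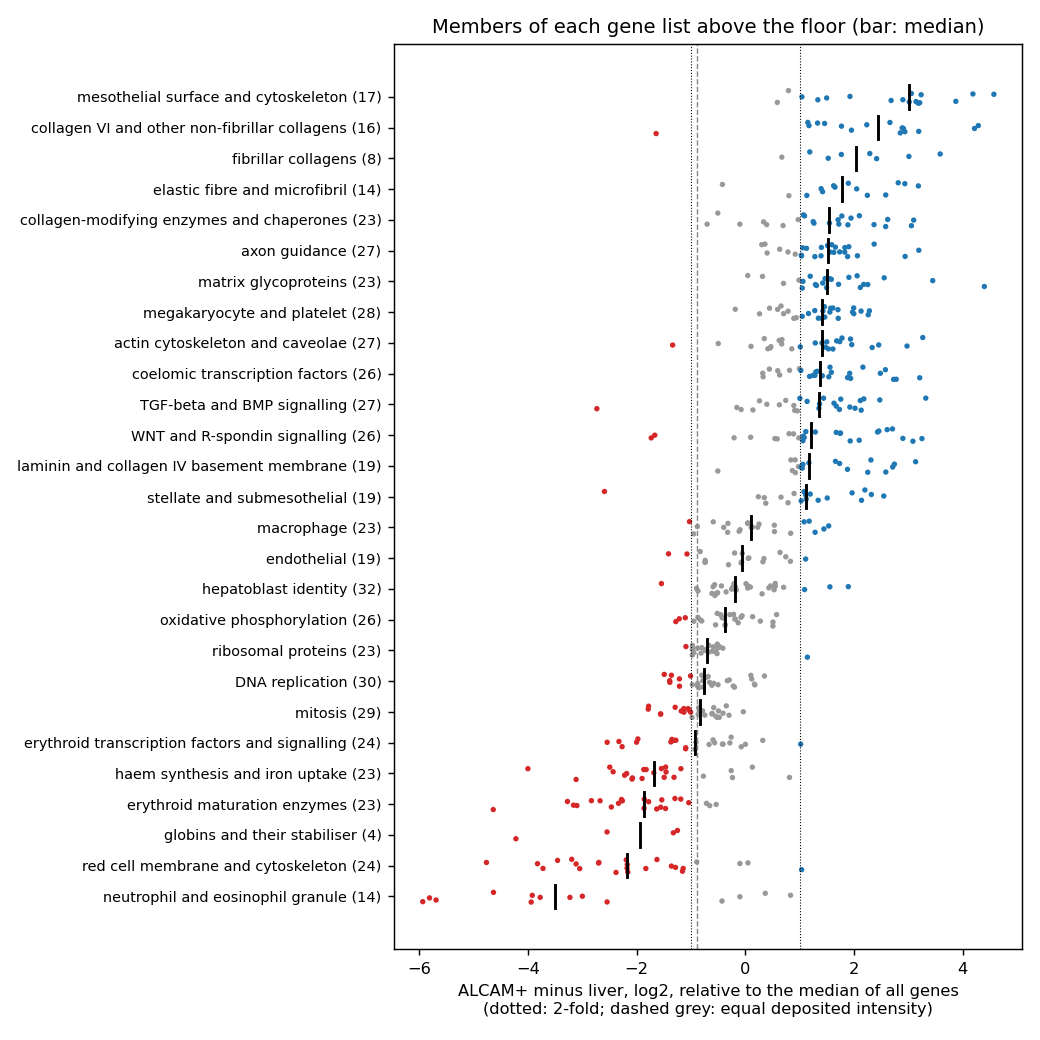
Difference in ALCAM+ minus liver (log2, relative to the median of all genes) for every member above the floor of 27 gene lists, 1 point per gene; blue is 2-fold higher, red 2-fold lower, grey within 2-fold, and the bar is the list's median. Members above the floor in only 1 array are included, such as 13 of the 17 mesothelial genes (only in ALCAM+) and 9 of the 14 granule genes (only in liver). Mesothelial genes (median 3.01) and non-fibrillar collagens (2.45) stand at the top, red cell membrane (-2.18) and granule genes (-3.50) at the bottom, and hepatoblast genes (-0.18) near the middle.

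Extracellular matrix genes were higher as a body, and the collagens led. Of 8 fibrillar collagen genes above the floor 7 were higher (median 2.03), and of 16 other collagen genes 15 were higher (median 2.45). Above the floor in both arrays were 5 of the former and 2 of the latter, all higher, with medians of 2.41 and 1.69. Col1a1, the main chain of type I collagen, was at 11943 in ALCAM+ cells and 1891 in liver (1.76), and its partner Col1a2 at 8234 and 540 (3.01). Col5a2, whose chain sets the width of type I fibrils, was at 5998 and 256 (3.58), and Col3a1 at 8518 and 852 (2.41). All 3 chains of collagen VI measured above the floor were higher, with Col6a2 at 3363 and 78 (4.28) and Col6a3 at 914 and 50 (2.93). The exception was Col19a1, at 65 in ALCAM+ cells and 121 in liver (-1.64). Col11a1 lay within 2-fold by its brightest probe set (0.67), while its other probe set was at 2.60.

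Enzymes and chaperones that work on collagen followed, with 16 of 23 higher, none lower and a median of 1.55. Over the 11 above the floor in both arrays, 4 were higher and the median was 0.69. Lox, the lysyl oxidase that crosslinks collagen and elastin, was at 2476 in ALCAM+ cells and 142 in liver (3.10), and Pcolce, an enhancer of procollagen cleavage, at 2711 and 162 (3.05). The prolyl 3-hydroxylase gene P3h1 was at 618 and 40 (2.62), though its other probe set was at 0.60. Members with general duties in the endoplasmic reticulum were near the shift or under it: the disulphide isomerase gene P4hb was at 7589 and 3128 (0.39) and the cyclophilin gene Ppib at 4022 and 3548 (-0.70). Ppib was thus still brighter in the ALCAM+ array. Elastic fibre and microfibril genes had 12 of 14 higher and a median of 1.77 (4 of 5 and 1.42 above the floor in both arrays). They included the fibrillin gene Fbn1 (1460 against 98, 2.81) and the fibulin gene Fbln5 (956 against 53, 2.93). Emilin2 was the lowest of them, at 613 and 441 (-0.42).

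Small leucine-rich and large proteoglycans were mixed, with 9 of 17 higher, 1 lower and a median of 1.10 (7 of 14 higher and 1.03 above the floor in both arrays). Fmod, which encodes the collagen-binding fibromodulin, was at 7128 in ALCAM+ cells and 220 in liver (4.04), with a median of 3.30 over its 5 other probe sets. Ogn, which encodes osteoglycin, was at 1091 and 42 (3.37), but its other probe set was within 2-fold, at 0.93. The glypican gene Gpc1 was at 2008 and 109 (3.13). Gpc4 (-0.06) and the syndecan gene Sdc4 (0.51) lay within 2-fold, and Omd was lower at 161 and 183 (-1.05). Dcn, which encodes decorin, was at 999 and 264 (0.97) by its brightest probe set and -1.03 by its other.

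Matrix glycoproteins had 19 of 23 higher, none lower and a median of 1.49 (8 of 10 and 1.25 above the floor in both arrays). Npnt, which encodes nephronectin, a matrix protein bound by the integrin ITGA8, was at 1537 in ALCAM+ cells and 24 in liver (4.39), though its 4 other probe sets had a median of 1.68. Mgp, an inhibitor of calcification, was at 2255 and 97 (3.44). Vtn, which encodes the hepatocyte product vitronectin, was the least changed at 2820 and 1476 (0.04). Basement membrane genes had 13 of 19 higher and a median of 1.17 (5 of 9 and 1.03 above the floor in both arrays). The paired collagen IV genes differed: Col4a5 and Col4a6, the chains of specialised epithelial membranes, were at 835 against 53 (2.74) and 388 against 9 (3.13), while the ubiquitous Col4a1 and Col4a2 were at 0.92 and 0.98. Col4a5 and Col4a6 were below the floor in liver, and their other probe sets were at 1.41 and 1.63. Col4a1 and Col4a2 were above the floor in both arrays, and the other probe set of Col4a1 was at 0.66. Among laminins Lama5 was at 857 against 63 (2.58), and Lama2 at 210 against 158 (-0.51).

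The actin and caveolar genes had 16 of 27 higher, 1 lower and a median of 1.41 (10 of 19 higher and 1.01 above the floor in both arrays). Cav1, the main coat protein of caveolae, was at 1117 in ALCAM+ cells and 48 in liver (3.26), and the coat partner gene Cavin1 at 922 and 85 (2.33). Cav2, whose protein assembles with caveolin 1, was at 173 and 58 (0.47). The calcium-binding protein gene S100a6 was at 549 and 23 (2.97). Anxa1, which neutrophils and macrophages also make, was lower at 211 and 295 (-1.34).

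Cell adhesion genes of the immunoglobulin and cadherin families, to which ALCAM belongs, were less one-sided: 6 of 18 were higher, 3 were lower and the median was 0.56. Above the floor in both arrays were 10, of which 4 were higher and 1 lower (median 0.685). Cdh11, a cadherin of mesenchyme, was at 1973 in ALCAM+ cells and 180 in liver (2.46), and Ncam1 at 5210 and 865 (1.68). The epithelial cadherin gene Cdh1 was at 563 and 289 (0.04). Cadm2 (36 against 197, -2.92), Nrcam (37 against 176, -2.74) and the vascular gene Icam2 (239 against 275, -1.07) were lower. Only the last of these was above the floor in the ALCAM+ array.

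Genes of secreted signals and their receptors were described in the order ligand, receptor, inhibitor and target. In the TGF-beta and BMP list, 16 of 27 were higher, 1 was lower and the median was 1.35 (8 of 15 higher above the floor in both arrays). The ligand gene Tgfb3 was at 996 in ALCAM+ cells and 39 in liver (3.32) and Tgfb2 at 2932 and 349 (2.13), whereas Tgfb1, which blood cells make, was at 492 and 214 (0.26). Bmp2 was at 166 and 94 (-0.16). Among receptors, Bmpr1b (208 against 14, 2.02) and Acvr1 (529 against 62, 1.92) were higher, and the endothelial co-receptor Eng was not (178 against 95, -0.08). The secreted binding protein gene Fstl1 was at 3291 and 307 (2.47). The target genes Id1 (0.14) and Id2 (0.74) were within 2-fold. The BMP antagonist gene Chrdl1 was lower by the probe set used (34 against 164, -2.73), but its other probe set was at 0.96.

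The WNT and R-spondin list had 17 of 26 higher, 2 lower and a median of 1.20 (5 of 9 higher, 1 lower and 1.08 above the floor in both arrays). Of the ligands, Wnt9a was at 457 in ALCAM+ cells and 11 in liver (3.25) and Wnt5b at 515 and 18 (3.08), and Rspo1, an R-spondin that mesothelium secretes, at 300 and 7 (2.90). The frizzled receptor gene Fzd2 was at 2379 and 197 (2.61), whereas Fzd5 was lower at 379 and 695 (-1.73). The secreted antagonist gene Sfrp2 was at 3509 and 277 (2.70) and Sfrp1 at 2656 and 248 (2.46). Axin2, a common target of the beta-catenin pathway, was at 321 and 32 (1.93). The stem cell receptor gene Lgr5 was at 59 and 113 (-1.67), barely above the floor in liver.

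Of 29 growth factor genes of the FGF, IGF, HGF, PDGF and VEGF families 14 were higher, 1 was lower and the median was 0.98 (8 of 17 higher, 1 lower and 0.93 above the floor in both arrays). Pdgfc was at 3293 in ALCAM+ cells and 230 in liver (2.87), and its other probe set was at 3.06. Mdk, which encodes midkine, was at 3214 and 359 (2.22), and Fgf9, a signal from mesothelium, at 614 and 59 (2.19). Igf2, the fetal growth factor, was bright in both arrays at 11991 and 4731 (0.45). Vegfd was lower at 117 and 159 (-1.28).

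Axon guidance genes, whose products also steer other migrating cells, were the most one-sided of the signalling lists: 21 of 27 were higher, none was lower, and the median was 1.51. Of these 27, 17 were above the floor only in ALCAM+ cells, and of the other 10, 8 were higher (median 1.33). Among ligands, Sema3d was at 1011 in ALCAM+ cells and 45 in liver (3.19) and Sema3a at 708 and 60 (2.37). Among receptors, Epha3 was at 592 and 27 (2.94) and Unc5c at 592 and 63 (2.06). Ephb4, a receptor of veins, was at 228 and 87 (0.36), and Plxna2 at 357 and 148 (0.30).

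Retinoid genes split. Of 13 above the floor 4 were higher, none was lower and the median was 0.51. Of these 13, 6 were above the floor only in ALCAM+ cells, and of the other 7, 1 was higher (median 0.47). Aldh1a2, which makes retinoic acid, was at 977 in ALCAM+ cells and 25 in liver (3.71). The binding protein gene Crabp1 was at 672 and 89 (1.83), and the reductase gene Dhrs3 at 1706 and 327 (1.44). Rbp4, the serum carrier made by hepatocytes, was at 5399 and 2888 (0.01). Lrat, the enzyme that makes retinyl esters for storage, was below the floor at 77 and 24.

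Genes for factors of the blood stem cell niche had 4 of 11 higher and a median of 0.84 (1 of 8 and 0.46 above the floor in both arrays). Angptl2 was at 304 in ALCAM+ cells and 28 in liver (1.98). Kitl, the ligand of the receptor KIT, was at 633 and 137 (1.20) by its brightest probe set, but the median of its 2 others was -0.43. Cxcl12, which holds stem cells in the niche, was at 970 and 283 (0.84). Dlk1, also a hepatoblast gene, was at 9145 and 3587 (0.46).

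Stellate and submesothelial genes had 12 of 19 higher, 1 lower and a median of 1.11 (5 of 8 higher, none lower and 1.15 above the floor in both arrays). Hand2, a transcription factor of stellate cells, was at 361 in ALCAM+ cells and 19 in liver (2.54), although its other probe set was at 1.23. The collectin gene Colec10 was at 1142 and 110 (2.32), and the receptor gene Pdgfra at 1991 and 221 (2.20). Des, which encodes desmin, was at 175 and 33 (1.08), and the receptor gene Pdgfrb at 264 and 101 (0.37). Gfap was lower, at 25 and 118 (-2.59), so below the floor in ALCAM+ cells. Ngfr was below the floor in both arrays, at 84 and 36. Itga8, used for a later sort, was at 430 and 48.

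Most erythroid genes were lower, except among transcription factors and signalling genes. Nearly all of them were above the floor in both arrays. Of the 4 globin genes or globin partners above the floor all 4 were lower, with a median of -1.94. Ahsp, the chaperone of alpha globin, was at 11174 in ALCAM+ cells and 15176 in liver (-1.33), a small step between bright values. The embryonic gene Hbb-y was at 7560 and 9745 (-1.25), whereas Hbb-bh1, another embryonic beta-like gene, was at 388 and 4066 (-4.22). Hba-x was at 1237 and 3945 (-2.54). Globin genes are alike in sequence and can share probes, so their single values are uncertain; the probe set used for Hba-a1 read 8 and 6, below the floor.

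Along the haem pathway the genes given here were lower from the first erythroid step to the last. Alas2, the erythroid enzyme of the first step, was at 550 in ALCAM+ cells and 4892 in liver (-4.0). Alas1, its counterpart in other cells, was at 256 and 68 (0.81). The 2 enzymes of the same reaction lay on opposite sides of the shift, Alas1 within 2-fold of it. Alas1 was below the floor in liver, so it could hardly have been lower, and its other probe set was at 0.27. Alad was at 5766 and 13211 (-2.08) and Uros at 859 and 2544 (-2.43). Urod was at 7738 and 11534 (-1.46), Cpox at 1437 and 2161 (-1.47), Ppox at 1261 and 2436 (-1.83) and Fech, which inserts the iron, at 3495 and 6932 (-1.87). Over the whole haem and iron list 18 of 23 were lower, none was higher and the median was -1.69. Tspo2, a red cell relative of the mitochondrial translocator protein, was at 97 and 514 (-3.11), and the mitochondrial iron importer gene Slc25a37 at 2037 and 5173 (-2.22). Hmox1, which breaks haem down and is rich in macrophages, was at 1285 and 629 (0.13).

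**Figure D4:**
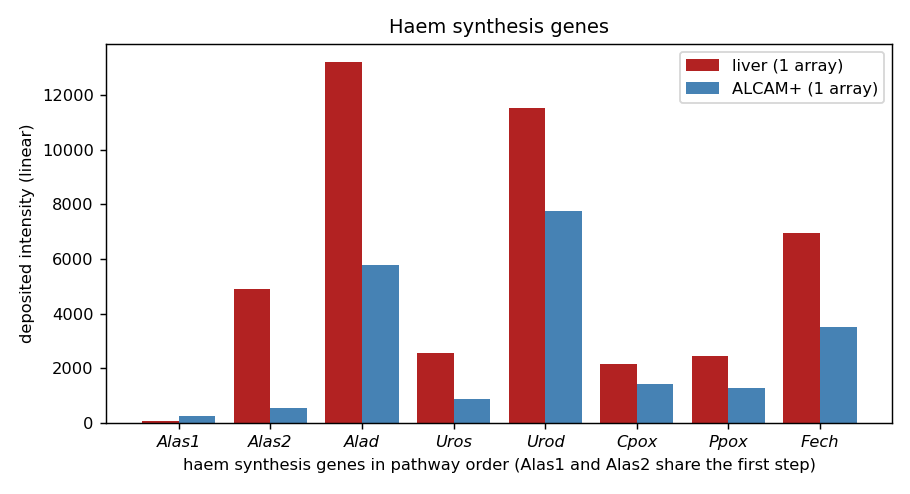
Deposited intensity (linear, bars from 0) of haem synthesis genes in pathway order in liver (red) and ALCAM+ cells (blue), 1 array each, so without error bars. The 7 genes shown from Alas2 to Fech are taller in liver, with the largest ratio at Alas2 (550 against 4892), while Alas1, at 256 against 68, is taller in ALCAM+ cells. The liver value of Alas1 is below the floor.

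Red cell membrane and skeleton genes were the lowest of the erythroid lists, with 20 of 24 lower, 1 higher and a median of -2.18. Epb42, which encodes protein 4.2, was at 63 in ALCAM+ cells and 1146 in liver (-4.76). The Rhesus gene Rhd was at 778 and 4701 (-3.45). Slc4a1, which encodes the anion exchanger band 3, was at 3902 and 11031 (-2.38). The higher member was Bcam, the Lutheran adhesion molecule that epithelia also carry, at 154 and 29 (1.03). Tmod1, a capping protein of actin also found in muscle, was at 2550 and 1330 (0.05).

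Enzymes of red cell maturation gave a like picture, with 20 of 23 lower, none higher and a median of -1.86. Fn3k, a kinase that removes sugar adducts, was at 87 in ALCAM+ cells and 1373 in liver (-4.64). Bpgm, which makes the regulator of haemoglobin oxygen affinity, was at 625 and 3091 (-3.16), and Blvrb, a biliverdin reductase, at 1725 and 6702 (-2.83). The catalase gene Cat was at 2112 and 1657 (-0.54), within 2-fold.

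Erythroid transcription factors and signalling genes were nearer the shift than the other erythroid lists. Of 24 members 11 were lower, 1 was higher and the median was -0.92, which is -0.03 as deposited. Gata1, the master factor of red cells and megakaryocytes, was at 2464 in ALCAM+ cells and 2014 in liver (-0.60), and Tal1 at 2468 and 2121 (-0.67). Both were brighter in the ALCAM+ array before the shift was taken off. Klf1, which red cells use and megakaryocytes do not, was at 2494 and 2899 (-1.10). Nfe2 was at 572 and 1581 (-2.33), and Bcl2l1, the survival gene of late red cell precursors, at 278 and 912 (-2.54). Zfpm1, the partner of GATA1, was at 845 and 358 (0.32), and Socs3, an inhibitor of cytokine signals, was higher at 858 and 218 (1.02).

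Promoters were read for the genes at both ends, because the sorted array was low in red cell genes and not in megakaryocyte genes, which share the factor GATA1. GATA factors bind the letters AGATAA or, on the other strand, TTATCT, and TEAD factors bind GGAATG or CATTCC. Windows from 250 bases before to 50 after the start site, from RefSeq on GRCm38.p6, were found for 8556 of the 11021 genes. Epb42 and Alas2 are shown as lower red cell genes, Pf4 as a megakaryocyte gene with the same letters, and Upk3b as the highest mesothelial gene. Matches to AGATAA and GGAATG are in capitals on either strand, and other matches to the shorter GATAA are not marked. Epb42 lies at chr2:121036828-121037127 (minus strand), Alas2 at chrX:150547167-150547466 (plus), Pf4 at chr5:90772185-90772484 (plus) and Upk3b at chr5:136038246-136038545 (plus).
Epb42: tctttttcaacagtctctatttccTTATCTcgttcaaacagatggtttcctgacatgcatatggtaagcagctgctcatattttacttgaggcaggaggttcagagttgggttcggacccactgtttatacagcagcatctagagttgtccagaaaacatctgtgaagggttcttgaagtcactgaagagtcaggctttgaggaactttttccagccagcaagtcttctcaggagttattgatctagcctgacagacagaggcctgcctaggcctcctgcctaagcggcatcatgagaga
Alas2: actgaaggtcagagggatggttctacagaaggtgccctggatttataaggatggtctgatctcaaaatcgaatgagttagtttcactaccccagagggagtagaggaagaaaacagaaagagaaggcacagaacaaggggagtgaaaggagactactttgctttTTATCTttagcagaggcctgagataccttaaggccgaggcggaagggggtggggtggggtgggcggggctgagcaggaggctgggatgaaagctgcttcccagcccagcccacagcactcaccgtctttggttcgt
Pf4: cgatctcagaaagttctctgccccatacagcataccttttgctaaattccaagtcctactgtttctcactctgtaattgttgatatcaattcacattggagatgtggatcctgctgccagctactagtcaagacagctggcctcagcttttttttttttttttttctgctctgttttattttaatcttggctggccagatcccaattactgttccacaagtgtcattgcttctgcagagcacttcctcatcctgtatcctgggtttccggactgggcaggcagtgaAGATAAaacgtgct
Upk3b: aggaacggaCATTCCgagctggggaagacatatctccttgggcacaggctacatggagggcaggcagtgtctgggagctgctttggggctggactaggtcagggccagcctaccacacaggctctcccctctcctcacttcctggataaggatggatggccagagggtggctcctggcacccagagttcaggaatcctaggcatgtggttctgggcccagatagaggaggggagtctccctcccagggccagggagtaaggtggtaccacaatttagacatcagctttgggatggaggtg

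The letters AGATAA, on either strand, were in 534 of the 8556 promoters (6.24%), and in 11.2% of the 32851 promoters in the whole table. Past 4-fold, 3.53% of all genes were higher and 2.41% lower. The letters were in the promoters of 31 of 172 of these lower genes (18%) and 20 of 290 of the higher ones (6.90%). They were in 6 of 16 red cell membrane promoters and, although those genes were not lower, in 7 of 21 megakaryocyte promoters. The other erythroid lists held them less often. They were in 3 of 18 haem and iron promoters and 3 of 22 of erythroid transcription factors and signalling genes. For erythroid maturation enzymes the count was 0 of 13, and for globins 0 of 2. Hepatoblast genes, mostly at the shift, had 4 of 24. None of 13 mesothelial promoters held them, but 3 of 14 stellate promoters, 2 of 16 of coelomic transcription factors and 4 of 26 of growth factor genes did. The shorter GATAA, which AGATAA contains, was in 16.2% of all promoters, 27.9% of 4-fold lower ones and 16.2% of 4-fold higher ones. It was in 5 of 13 mesothelial, 5 of 14 stellate, 12 of 24 hepatoblast and 8 of 16 red cell membrane promoters. The absence from mesothelial promoters thus held only for the longer letters. GGAATG, on either strand, was in 11.7% of all promoters, in 17.9% of 4-fold higher ones (52 of 290), in 14.0% of 4-fold lower ones, in 5 of 13 mesothelial ones and in none of 14 stellate ones. GGAATG overlaps no other motif given here. A match is a description of these windows, and whether a factor binds there was not tested.

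The other blood cell types did not move as a body. Neutrophil and eosinophil granule genes included the lowest of all, with 10 of 14 lower, none higher and a median of -3.50. Of the 14, 9 were above the floor only in liver, so their direction was set by the way they passed, and 2 only in ALCAM+ cells. Of the other 3, 1 was lower and the median was -0.43. They divided by stage of maturation. The late genes were at or below the floor in the ALCAM+ array or close to it: S100a9, a calprotectin chain, was at 89 in ALCAM+ cells and 2919 in liver (-5.69), S100a8 at 162 and 1464 (-3.94) and Camp, which encodes cathelicidin, at 20 and 468 (-4.63). Stfa2l1 (7 against 746) and Stfa3 (10 against 774), stefins that can share probes, were at -5.93 and -5.81. The genes of early primary granules were within 2-fold: Mpo, which encodes myeloperoxidase, was at 2552 and 1477 (-0.10), Prtn3 at 262 and 187 (-0.43) and Ctsg at 267 and 103 (0.37). The 4 members within 2-fold were all brighter in the ALCAM+ array as deposited.

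Megakaryocyte and platelet genes were higher, with 19 of 28 past 2-fold, none lower and a median of 1.41 (17 of 23 and 1.43 above the floor in both arrays). Gp1bb and Gp1ba, subunits of the platelet receptor for von Willebrand factor, were at 1984 in ALCAM+ cells against 207 in liver (2.28) and 1774 against 206 (2.13). Vwf itself, made by megakaryocytes and endothelium, was at 1932 and 249 (1.99), and Selp, of the granule membrane, at 285 and 25 (1.99). The abundant chemokine genes Pf4 (9712 against 3479, 0.59) and Ppbp (6272 against 2078, 0.70) were within 2-fold. The summed level of 6 megakaryocyte markers was 21823 in ALCAM+ cells and 6462 in liver (0.87). All 6 were above the floor in both arrays, so megakaryocyte RNA was present in the sorted sample. Their part in other differences was not tested.

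Most macrophage genes (17 of 23) were within 2-fold, with 5 higher, 1 lower and a median of 0.11. The summed level of the 6 macrophage markers was nevertheless past 2-fold, at 6962 in ALCAM+ cells and 1651 in liver (1.19), with all 6 above the floor in ALCAM+ cells and 4 in liver; Csf1r and C1qb made up most of it. Their part in the other differences was not tested. Csf1r, the receptor of the macrophage growth factor, was at 2823 in ALCAM+ cells and 516 in liver (1.53), and the complement gene C1qb at 2898 and 731 (1.08). C1qc, of the same complex, was at 258 and 122 (0.11) and C1qa at 130 and 61 (0.04). Lyz2, a lysozyme of macrophages and neutrophils, was lower at 603 and 668 (-1.03). Lymphoid, mast cell and progenitor genes had 1 of 10 higher and a median of -0.04, with Gata2 at 644 and 335 (0.03) and Cd34 at 263 and 226 (-0.68). Of the 30 measured, 20 were below the floor.

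Endothelial genes also stayed near the shift: 1 of 19 was higher, 2 were lower and the median was -0.07. Flt4, a receptor of VEGF-C, was at 891 in ALCAM+ cells and 212 in liver (1.11). The sinusoidal gene Stab2 was at 695 and 201 (0.83) and Lyve1 at 433 and 390 (-0.74). The defining genes Pecam1 (85 and 103) and Cdh5 (105 and 63) were below the floor in both arrays. Endothelial markers summed to 2555 and 1236 (0.16).

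Hepatoblast genes were bright in both arrays and mostly at the shift. Of 32 above the floor 3 were higher, 1 was lower and the median was -0.18, or 0.70 as deposited. Alb, which encodes albumin, was at 15683 in ALCAM+ cells and 12832 in liver (-0.60), and Afp at 13191 and 10376 (-0.54). Hnf4a, the hepatocyte nuclear receptor, was at 2932 and 965 (0.70). Among the higher members were the urea cycle gene Cps1 (930 against 122, 1.89) and the keratin gene Krt8 (1864 against 463, 1.09). The factor gene Onecut2 was lower at 96 and 161 (-1.54). The 6 hepatoblast markers summed to 46305 and 33520, so the sorted sample was not free of hepatoblast RNA. Cholesterol and fatty acid synthesis genes had 24 of 25 within 2-fold and a median of 0.17, the exception being Fdps at 716 and 1076 (-1.46).

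Proliferation genes were below the shift, though most were brighter in the ALCAM+ array as deposited (22 of 30 replication genes and 17 of 29 mitosis genes). Of 30 DNA replication genes 7 were lower and none higher (median -0.75, or 0.13 as deposited), and of 29 mitosis genes 11 were lower and none higher (median -0.84, or 0.05 as deposited). Pcna, the replication clamp, was at 7588 in ALCAM+ cells and 8273 in liver (-1.01). Mki67, a mark of cycling cells, was at 3919 and 6263 (-1.56), and Aurka, a spindle kinase, at 642 and 1209 (-1.78). Pole (0.35) and Cdt1 (0.17) lay above the shift. The direction for both lists rests on the scaling.

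Cell cycle regulators went both ways, with 4 of 25 higher and 9 lower. E2f2, a factor that red cell precursors use, was at 193 in ALCAM+ cells and 1461 in liver (-3.71), and its other probe set was at -3.53. The inhibitor genes Cdkn2c (76 against 267, -2.51) and Cdkn2d (195 against 466, -2.08) were lower. Another inhibitor, the imprinted Cdkn1c, was higher at 3349 and 521 (1.76), as was Gas1, a surface protein of arrested fibroblasts, at 3119 and 188 (3.06). Gas6, the ligand of AXL, was at 465 and 51 (1.96). Imprinted growth genes had 4 of 15 higher, none lower and a median of 0.58, led by Ndn, which encodes necdin, at 6886 and 370 (3.28, with a median of 3.24 over 4 other probe sets). H19 (13904 against 7220, 0.06) and Grb10 (10008 against 6404, -0.24) were bright in both.

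Genes of general duties were below the shift. Ribosomal protein genes had a median of -0.71, which is 0.17 as deposited, with 21 of 23 within 2-fold. Rps6 stood apart at 1794 in ALCAM+ cells and 429 in liver (1.14), and Rpl27 was lower at 9699 and 11217 (-1.09). Oxidative phosphorylation genes had a median of -0.37 and housekeeping genes of -0.52. Of 25 housekeeping genes 5 were lower, among them the transferrin receptor gene Tfrc (6467 against 8710, -1.31), which is also a red cell gene, and the proteasome gene Psmb2 (1560 against 2259, -1.41). For comparison, the brightest bin of all genes had a median of -0.31.

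Stress genes that dissociation of tissue can induce had 6 of 22 higher, 3 lower and a median of 0.28. Of these 22, 4 were above the floor only in ALCAM+ cells. Of the other 18, 2 were higher, 3 lower and the median was 0.1. The chaperone genes Hspa1b (584 in ALCAM+ cells against 60 in liver, 2.10) and Hspb1 (432 against 50, 1.88) were higher, but both were below the floor in liver. The factor gene Atf3, above the floor in both arrays, was also higher (911 against 147, 1.62). Fos (6744 against 3536, 0.04) and Jun (3433 against 1368, 0.43) were bright in both arrays and within 2-fold. Ier3 was lower at 464 and 1150 (-2.16). Their part in other differences was not tested. Interferon and antigen presentation genes spread widely: Irgm2, an interferon-induced GTPase, was at 84 and 954 (-4.16), while Gbp2, of a related GTPase family, was at 366 and 25 (2.34). B2m was at 7244 and 4565 (-0.22).

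Markers of tissues next to the liver were looked at for cells carried over. Heart and muscle genes had 6 of 14 higher, 2 lower and a median of 0.99. Over the 5 members above the floor in both arrays, 2 were higher, 2 lower and the median was -0.90. Myl7, an atrial myosin light chain, was at 2042 in ALCAM+ cells and 168 in liver (2.60), Tnnt2 at 377 and 20 (2.56) and Actc1, the cardiac actin, at 1574 and 194 (2.04). The defining cardiac genes Nkx2-5 (14 and 10), Myh6 (14 and 8) and Nppa (22 and 12) were below the floor in both arrays. The 6 cardiac markers together summed to 4043 and 412. By rank within the fraction arrays, Myl7 was at percentile 97.8 in PDPN+ and 95.7 in ITGA8- cells, against 48.1 in PDPN- and 71.2 in ITGA8+ cells. Tnnt2 was at 67.7 in ALCAM+ cells and 38.9 to 56.5 in the fractions, and Actc1 at 89.2 and 26.3 to 51.0. Which cells these RNAs came from was not tested. Neural genes had 7 of 25 above the floor and 1 higher, Ncam1. Sox10, of the neural crest, was below the floor at 78 and 8. Of 21 lung, gut and pancreas genes 3 were above the floor and none was past 2-fold.

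Ranked within each array, the genes could also be followed into the 4 fraction arrays, whose intensities are on another scale. A percentile here is the share of genes dimmer than the one named in the same array. Upk3b moved from 47.7 in liver to 95.6 in ALCAM+ cells, and was at 98.9 in PDPN+ and 44.9 in PDPN- cells. Col6a1 moved from 52.7 to 95.5 and lay between 74.7 and 97.0 in the fractions. Alas2 was at 99.1 in liver, 73.7 in ALCAM+ cells and 54.6 to 72.1 in the fractions. S100a9 was at 97.6 in liver and 45.3 in ALCAM+ cells, yet at 98.0 in PDPN+ cells, against 28.9 in PDPN- cells. Mpo was at 94.0 in liver, 94.1 in ALCAM+ cells and 1.2 in PDPN- cells. C1qb was at 95.2 in ALCAM+ and 96.6 in PDPN+ cells, against 31.4, 48.5 and 26.4 in the PDPN-, ITGA8+ and ITGA8- fractions. The 6 megakaryocyte markers summed to 27187, 245, 31637 and 14557 in the PDPN+, PDPN-, ITGA8+ and ITGA8- arrays. Blood cell genes thus ranked differently from 1 sorted array to the next, while Alb stayed at 99.7 or above in all 6.

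**Figure D5:**
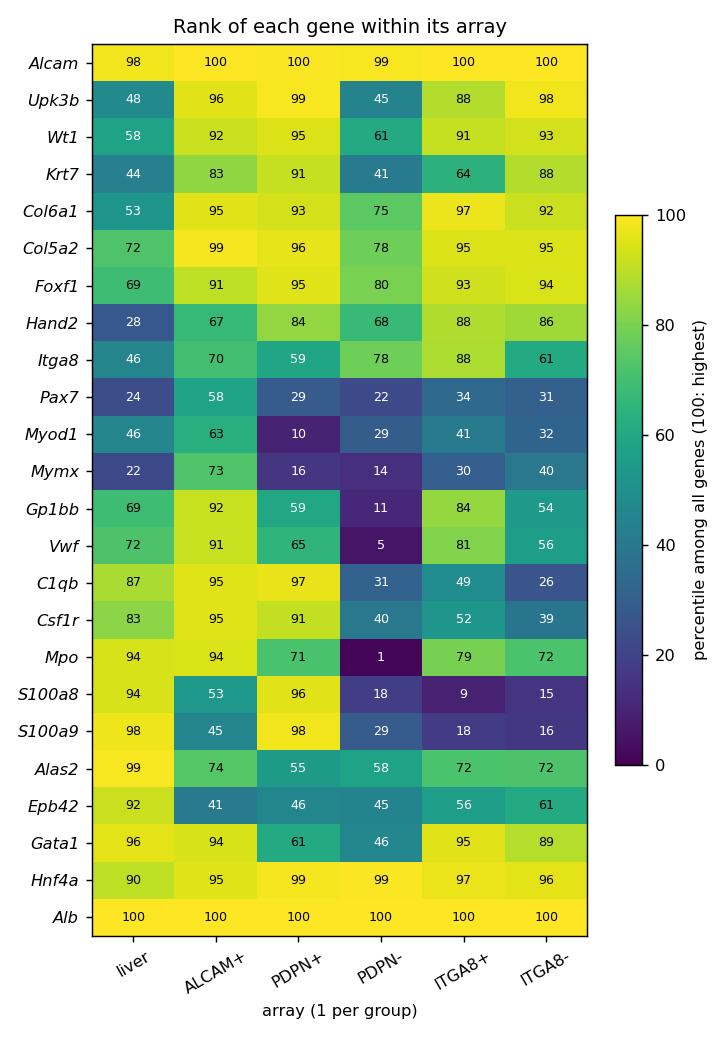
Percentile rank of 24 genes among all 20678 genes within each of the 6 arrays (1 per group; 100 is the brightest), as colour and number. Mesothelial and collagen genes rank higher in ALCAM+ cells than in liver, red cell genes lower, and Alb is near 100 throughout. S100a8 and S100a9 are high in liver and PDPN+ cells and near the middle in ALCAM+ cells (53.4 and 45.3). They are low in PDPN-, ITGA8+ and ITGA8- cells.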

How the data were processed

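RNA of 6 samples was hybridised to Affymetrix Mouse Genome 430 2.0 arrays, 1 per group, from 20 ng of total RNA per the labels' protocols. The deposited values are whole-number intensities on a linear scale. RMA and Partek were used per the submitters' processing notes; versions and genome build were not given in the sources used here. Intensities of the liver and ALCAM+ arrays share a scale and carry control probe sets, while the 4 fraction arrays are on another, so no intensity is compared across the sets apart from the floor described here.

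From 45101 probe sets, gene comparisons left out 64 controls, 5746 without a gene and 1280 with several genes, which left 38011. Each gene took the value of its brightest probe set by the mean of the ALCAM+ and liver arrays. Symbols came through Entrez identifiers from a RefSeq table of GRCm38.p6 (92.11% matched). The floor was the median of all probe set values of the 6 arrays pooled, so the brighter scale of the fraction arrays raised it above the medians of the ALCAM+ and liver arrays. Differences were computed with Python 3.11.15, numpy 2.4.6, pandas 2.3.3 and statsmodels 0.14.6; figures with matplotlib 3.10.9. The procedure was tested on simulated data with a constant shift and with changes placed only in genes bright in liver. A shift that varies with intensity was not simulated. No test between groups was possible.

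The 42 gene lists (1045 genes measured, 802 above the floor, 46 genes in more than 1 list) and the comparison itself were chosen with earlier results of these data known. Genes were named by rule: the 15 highest and 15 lowest differences above the floor in both arrays, ranks 9 to 24 in each direction, up to 4 members at each end of a list, the sort markers, and the 10 brightest genes past 2-fold in each direction. Others, such as the remaining haem enzymes and the genes of the added families, were chosen after their values were seen. A few list members are counted with their lists but not reported here by name. Of 11 promoter motifs searched, 2 are given. Alternatives changed the pseudocount, floor, centring, probe set choice and threshold. The number of arrays limits the precision of every value.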

Additional observations from a re-analysis of the deposited data

How the results depend on the processing

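With nothing subtracted, 4914 genes were 2-fold higher and 311 lower, and with the median of ribosomal and oxidative phosphorylation genes subtracted 3373 were higher and 500 lower. With both arrays required above the floor, and the shift taken anew from those genes (0.72), the counts were 951 and 704, without a floor 3249 genes were higher, and at 4-fold 389 were higher and 266 lower. The higher share of called genes was 57.5% as reported, 94.0% with nothing subtracted, 87.1% with the ribosomal centring, 71.2% without a floor, and 53.5% after a loess on intensity. Of 20 list medians past 2-fold none changed sign, but 15 stayed past it with a pseudocount of 64, 17 after the loess, 18 with both arrays above the floor or nothing subtracted, and 19 or 20 under the others. Medians nearer the shift changed sign: with both arrays above the floor and the new shift, heart and muscle genes were at -0.73 and endothelial genes at 0.15, and hepatoblast genes were at 0.08 after the loess. Among single genes, Chrdl1 was at 0.94 with the probe set brightest over 6 arrays. After the loess Col2a1 was at -0.20, Col9a1 at -0.11, Krt14 at -0.033 and Ltbp4 at -0.17. With gene-specific probe sets Dut was at 0.59 and Socs3 at -0.36, and with the median over probe sets Kitl was at -0.34. The cause was not tested. No paired analysis was possible because each group has 1 array. The balance of higher and lower genes rests on the shift subtracted, and differences of dim genes on the pseudocount; neither array has a replicate, so no value has an error between samples.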

Other observations

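Some gene families were grouped after the data were seen and are given as values only, on the same scale relative to the shift and beside the same background of 15.6% higher and 11.5% lower. HOX genes, which set position along the body axis, had 35 members measured and 11 above the floor. All 11 were below the floor in liver and passed only through the ALCAM+ array, so their direction was set by that filter and no count is read from it. Hoxc5 was at 341 in ALCAM+ cells and 8 in liver (3.01), Hoxc4 at 1405 and 93 (2.82) and Hoxb3 at 1117 and 97 (2.44). Those above the floor were all of paralog groups 1 to 5 except Hoxc8, at 217 and 61 (0.71). ADAMTS proteases, which cut proteoglycans and procollagens, had 12 members above the floor, 9 of them only in ALCAM+ cells. Of the other 3, Adamts9 was higher at 3879 and 456 (2.16). Adamts3 (349 and 177, 0.04) and Adamts19 (268 and 280, -0.94) were within 2-fold.

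Desmosome genes, which join epithelial and heart muscle cells, had 5 of 6 above the floor higher (4 of 5 above it in both arrays). Dsg2, a desmosomal cadherin, was at 1981 in ALCAM+ cells and 161 in liver (2.61), and the linker gene Dsp at 1749 and 217 (2.04). Pkp4 was at 3855 and 1992 (0.06). The 4 genes of Hippo pathway effectors above the floor were all higher (3 of 3 above it in both arrays). Yap1 was at 2144 and 411 (1.45), Wwtr1 at 1485 and 214 (1.82) and Tead1 at 1078 and 139 (1.94). Tead2, at 833 and 109 (1.88), was not above the floor in liver. The other probe sets of Wwtr1 and Tead1 were within 2-fold, at 0.88 and 0.98.

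The membrane skeleton split by paralog. The red cell beta spectrin gene Sptb was lower (-2.70), while spectrin genes of other cells were higher: Sptan1 was at 4042 in ALCAM+ cells and 252 in liver (3.04) and Sptbn1 at 5687 and 1184 (1.36). Among ankyrins Ank1, the red cell form, was at 370 and 728 (-1.83), Ank2 at 1471 and 736 (0.10) and Ank3 at 893 and 303 (0.63). Among adducins Add2 was at 141 and 365 (-2.16), Add1 at 2014 and 3053 (-1.48) and Add3 at 1722 and 402 (1.17). Of the band 4.1 genes Epb41 was at 1883 and 3162 (-1.63) and Epb41l3 at 1144 and 152 (1.90). Over the 14 members above the floor 4 were higher and 6 lower.

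Of 8 skeletal muscle regulators measured, 4 were above the floor in the ALCAM+ array and none in liver. Pax7, of muscle stem cells, was at 211 in ALCAM+ cells and 16 in liver (1.94), Myod1 at 294 and 48 (1.39), Myog at 254 and 58 (0.98) and Mymx, a fusion protein of myoblasts, at 514 and 15 (3.21). Mymx was at percentile 72.5 of genes in the ALCAM+ array and between 14.0 and 39.6 in the 4 fraction arrays, and Pax7 at 57.8 against 22.2 to 34.2. The other 4 were below the floor in both arrays: Myf5 at 106 and 11, Myf6 at 13 and 11, Mymk at 29 and 18, and Pax3, brighter in liver, at 36 and 58.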
